A study of Mus musculus with 9 samples.

Results

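Hemoglobin and erythroid transcripts were measured by bulk RNA sequencing of right ventricular myocardium as a record of the red blood cell content of each library. The members were the 5 rows named Hba-a1, Hba-a2, Hbb-bs, Hbb-bt and Alas2, out of 54532 genes in the deposited table. All 5 reached the mean of 0.5 FPKM that was required for testing, as did 13477 genes in all. FPKM is a fragment count divided by gene length and library size. The 9 libraries came from wild-type C57BL/6 mice, listed under postnatal day 7 and operated on at that age. Sham mice (3 libraries) had the control operation. VO mice (3 libraries) received a surgical fistula that overloads the heart with volume. CsA mice (3 libraries) received the same fistula and injections of cyclosporin A, a blocker of the phosphatase calcineurin. Sex, age at harvest and drug dose are not in the labels. Nor do the labels tie each library to its own mouse, and the p-values therefore describe the spread of these samples alone, some of which may be technical.

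Adult hemoglobin is a tetramer of alpha and beta globin chains, each holding heme. Hba-a1 and Hba-a2 encode the alpha chain, and Hbb-bs and Hbb-bt encode the beta chain in C57BL/6 mice. Alas2 encodes the erythroid form of aminolevulinic acid synthase, which starts heme synthesis. Mature red cells have no nucleus, and young ones (reticulocytes) still carry globin mRNA, so blood left in the vessels and chambers adds these transcripts to a heart sample.

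The libraries held 12046288 to 15986747 fragments assigned to genes. VO 3 stood apart, with 11.01% of fragments from mitochondrially encoded genes against 22.18% to 26.34% in the other 8 libraries and with 17003 genes above 0 against 19619 to 20479. Ventricular cardiomyocyte markers were high everywhere, with a summed level of 10500 to 17900 FPKM over 10 genes. Sham 1, Sham 3 and CsA 3 also held atrial transcripts, with summed atrial markers of 608, 637 and 168 FPKM against 12.0 to 37.5 FPKM in the others. Sham 2 carried Y-linked Ddx3y (18.6 FPKM) and almost no Xist (0.00401 FPKM), the reverse of the other 8 libraries, so sex was unbalanced between the groups.

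The members lie in 3 places in GRCm38, the build of the files. Hba-a1 (ENSMUSG00000069919, chromosome 11, 32283511 to 32284465, plus strand) and Hba-a2 (ENSMUSG00000069917, chromosome 11, 32296489 to 32297298, plus strand) form the alpha pair. Hbb-bs (ENSMUSG00000052305, chromosome 7, 103826534 to 103828096, minus strand) and Hbb-bt (ENSMUSG00000073940, chromosome 7, 103812524 to 103813996, minus strand) form the beta pair. Alas2 (ENSMUSG00000025270, chromosome X, 150547375 to 150570638, plus strand) is X-linked.

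Within a pair the genes are close to copies. In the GENCODE M21 transcripts the coding sequences of Hba-a1 and Hba-a2 differed at 1 of 429 bases and encoded the same 142 residues, and those of Hbb-bs and Hbb-bt differed at 1 of 444 bases and encoded the same 147 residues. Of the 100-base stretches in Hba-a1 transcripts, 63.3% also occurred in Hba-a2, and 79.5% the other way. For the beta pair these shares were 49.7% of Hbb-bs and 54.8% of Hbb-bt. How reads that fit both copies were counted is not known here, so the split within a pair, and the level of each copy, is uncertain.

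The stretches before the start sites are shown because they show how alike the copies are outside the coding sequence and which erythroid promoter motifs the members hold. Sequences are from RefSeq (GRCm38.p6), 5′ to 3′ on the strand of the gene, and positions are negative before the RefSeq start. GENCODE models start farther upstream for some genes, so 12 bases of the Hbb-bs stretch, 30 of Hbb-bt and 23 of Alas2 lie in GENCODE exons. Capitals mark matches, on either strand, to 4 motifs: the GATA factor motif (GATA after A or T and before A or G), the motif CACCC bound by Klf factors, the CCAAT box, and the TATA motif (TATAA before A or G). Overlapping matches run together.
Hba-a2 (chr11:32296302-32296471, plus strand, -190 to -21): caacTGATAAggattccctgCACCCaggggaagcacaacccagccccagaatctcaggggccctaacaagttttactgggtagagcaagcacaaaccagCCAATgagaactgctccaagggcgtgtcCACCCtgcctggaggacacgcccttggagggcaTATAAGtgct
Hbb-bs (chr7:103827948-103828023, minus strand, -95 to -20): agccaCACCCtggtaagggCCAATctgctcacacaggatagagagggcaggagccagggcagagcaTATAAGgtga
Hbb-bt (chr7:103813967-103814033, minus strand, -110 to -44): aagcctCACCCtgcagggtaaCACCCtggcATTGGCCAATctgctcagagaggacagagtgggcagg
Alas2 (chrX:150547322-150547397, plus strand, -95 to -20): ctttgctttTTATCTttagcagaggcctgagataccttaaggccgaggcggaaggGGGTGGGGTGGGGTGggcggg

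The alpha pair shares the whole Hba-a2 stretch, which recurs without a change before Hba-a1, and 97.6% of aligned bases in the 250-base windows were the same. The beta pair matched at 69.3%. Over these 250 bases the CACCC motif was found 2 times in each alpha gene, 1 time in Hbb-bs, 3 times in Hbb-bt and 3 times in Alas2. CCAAT was found in the 4 globin genes, and Alas2 had no match. A GATA match was found in the members other than Hbb-bt. A TATA match lay between -30 and -22 in the globin genes, and the matches in Alas2 lay between -209 and -202. These are matches of letters and not measured binding. Such matches are common: of 32851 promoter windows of this length, 26.5% held a GATA match, 52.0% CACCC, 33.8% CCAAT and 17.0% a TATA match.

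Hbb-bs was the most abundant member. It stood at 440.0, 491.6 and 421.3 FPKM in Sham 1 to 3, at 415.8, 484.0 and 1304 FPKM in VO 1 to 3, and at 593.2, 391.1 and 569.1 FPKM in CsA 1 to 3. VO 3 was 2.2 times the next highest library, while the other 8 spanned a 1.52-fold range in which the groups overlapped. By mean level Hbb-bs ranked 53 among the 13477 tested genes.

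Hbb-bt, the second beta gene, had the same order of groups at a lower level. It stood at 49.34, 73.44 and 46.76 FPKM in Sham, at 52.57, 67.83 and 182.5 FPKM in VO and at 72.38, 47.15 and 106.1 FPKM in CsA. VO 3 was again highest, at 1.72 times CsA 3. All 3 groups overlapped.

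Hba-a1 was the more abundant alpha gene. It stood at 209.9, 256.6 and 171.3 FPKM in Sham, at 92.74, 165.4 and 339.5 FPKM in VO and at 200.7, 180.5 and 270.0 FPKM in CsA. The VO group held both the lowest and the highest library, and VO 1 and VO 2 lay below all 3 Sham libraries.

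Hba-a2 varied most. It stood at 37.92, 60.7 and 62.7 FPKM in Sham, at 20.04, 58.0 and 191.9 FPKM in VO and at 70.89, 37.94 and 78.34 FPKM in CsA. Its lowest value, in VO 1, rested on 213 fragments (95% Poisson interval 17.4 to 22.9 FPKM, counting error only). VO 3 was 2.45 times the next library, and without it the 8 libraries still spanned 3.91-fold.

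Alas2 was the lowest member, at rank 2864 by mean. It stood at 8.187, 12.42 and 7.867 FPKM in Sham, at 10.26, 14.16 and 20.13 FPKM in VO and at 15.7, 9.79 and 15.25 FPKM in CsA. Sham 2, the library with Y-linked transcripts, was the highest Sham library for this X-linked gene and also for Hbb-bs, Hba-a1 and Hbb-bt. The groups overlapped, and VO 3 exceeded CsA 1 by 1.28-fold.

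**Figure D1:**
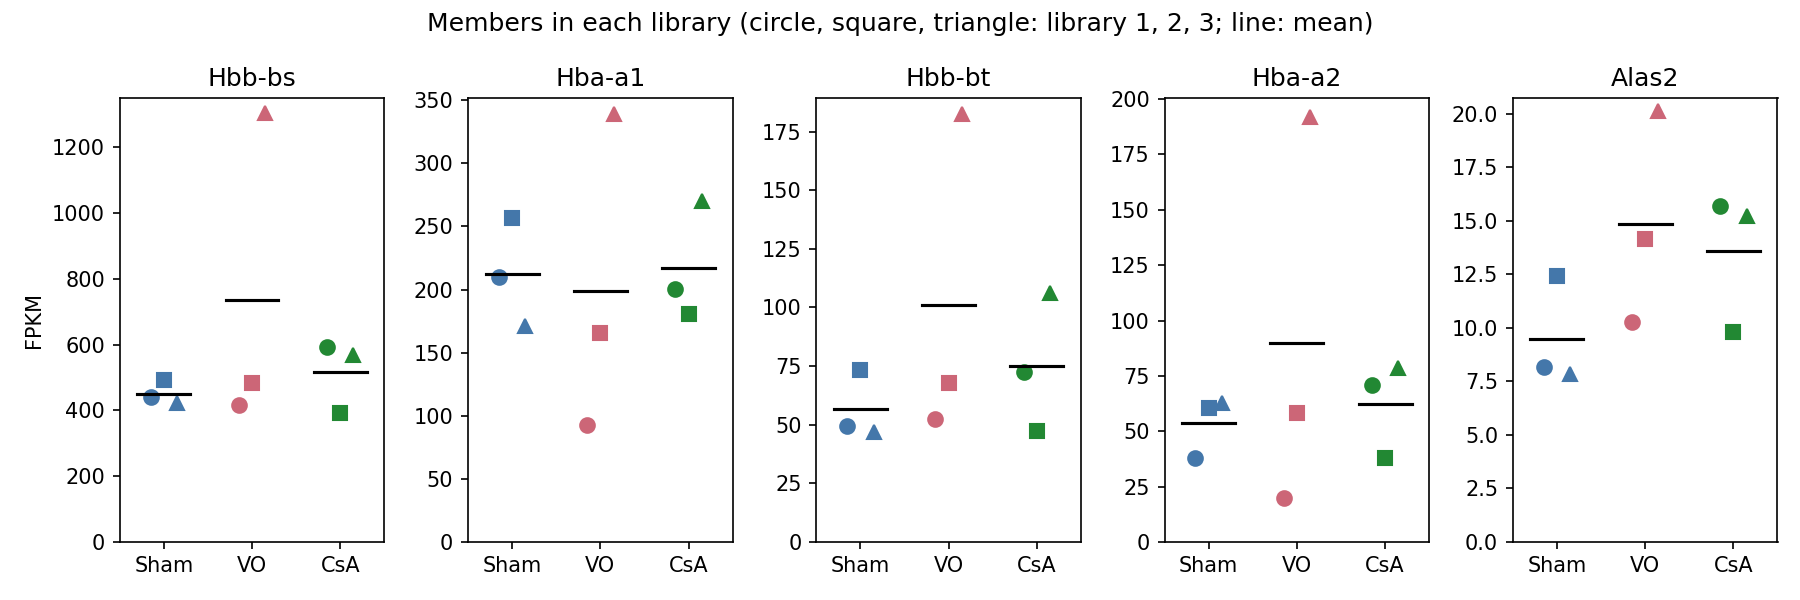
FPKM of the 5 members (vertical axes, linear and starting at 0, a scale for each gene) in the Sham, VO and CsA libraries, with circles, squares and triangles for libraries 1, 2 and 3 and a line at the group mean. VO 3 is the highest library in every panel, from 1.26 times the next library for Hba-a1 to 2.45 times for Hba-a2.

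Levels per length ran in the order Hbb-bs, Hba-a1, Hbb-bt, Hba-a2 and Alas2 in 7 libraries, and Hba-a2 exceeded Hbb-bt in Sham 3 and VO 3. Hbb-bt and Hba-a2 did not differ beyond their spread in any group, at 56.51 ± 14.72 against 53.77 ± 13.76 FPKM in Sham, 101.0 ± 71.03 against 89.96 ± 90.26 FPKM in VO and 75.2 ± 29.56 against 62.39 ± 21.5 FPKM in CsA (SD, n = 3). The other neighbours in that order kept their place in each of the 9 libraries.

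Together the members took 0.0487% (95% Wilson interval 0.0476% to 0.0498%, VO 1) to 0.0846% (0.083% to 0.0862%, CsA 3) of fragments in 8 libraries, and 0.1706% (0.1686% to 0.1726%) in VO 3. Their summed level was 783 ± 98.1 FPKM in Sham, 1140 ± 784 FPKM in VO and 886 ± 195 FPKM in CsA (SD, n = 3). VO 3 supplied 2038 FPKM to its group, and VO 1 and VO 2 lay at 591.4 and 789.3 FPKM. VO 3 was the highest library for 27.3% of all tested genes and exceeded the next library by more than 2-fold in 2.31%, as it did for Hbb-bs and Hba-a2. In bulk samples, a different number of red cells and a different amount of RNA per red cell cannot be told apart.

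VO against Sham addresses the effect of the fistula. The limma test across all genes called 0 of the 5 members at an adjusted p of 0.05, against a background of 4.76% of tested genes, and 0 also had an unadjusted p under 0.05. A limma voom fit of the recovered fragments called 0, with 1 member, Alas2, at an unadjusted p under 0.05 (adjusted p = 0.148 in limma voom). The libraries of VO and Sham overlapped for each member, while 33.1% of tested genes had no overlap. On the log2 scale Hbb-bs differed by 0.51 ± 0.398 (SE; 95% interval -0.38 to 1.4; limma adjusted p = 0.423). For Hbb-bt it was 0.64 ± 0.45 (-0.37 to 1.65; adjusted p = 0.37), and for Alas2 0.57 ± 0.272 (-0.04 to 1.18; adjusted p = 0.193). Hba-a2 was at 0.22 ± 0.661 (-1.26 to 1.7) and Hba-a1 at -0.27 ± 0.409 (-1.19 to 0.64). These intervals leave room for a rise of 1.56-fold in Hba-a1 and up to 3.24-fold in Hba-a2, and for falls to 0.44 and 0.42 of the Sham level.

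Without VO 3 the beta genes lost most of their difference and the alpha genes lay lower in VO. Hbb-bs was then at a log2 fold change of -0.0045 ± 0.198, Hbb-bt at 0.11 ± 0.329 and Alas2 at 0.34 ± 0.256. Hba-a2 was at -0.6 ± 0.464 and Hba-a1 at -0.76 ± 0.284, the latter with a limma adjusted p of 0.0934. The median over the 5 members went from 0.51 to -0.0045, beside a median of 0.003 over all tested genes in the 9 libraries.

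CsA against VO addresses the effect of cyclosporin A in mice with a fistula, and it shares the VO libraries with the comparison above. It called 0 of the 5 members in limma and 0 in voom, with 0 at an unadjusted p under 0.05 in each, against a background of 0.0% called among 13477 genes (2219 at an unadjusted p under 0.05). The libraries overlapped for each member, while 21.2% of tested genes had no overlap. In log2 units Hbb-bs was at -0.33 ± 0.398 (95% interval -1.22 to 0.56; limma adjusted p = 0.702), Hbb-bt at -0.28 ± 0.45 and Alas2 at -0.1 ± 0.272. Hba-a1 was at 0.3 ± 0.409 and Hba-a2 at -0.036 ± 0.661. Leaving out VO 3 put all 5 above 0, from 0.13 for Alas2 to 0.78 for both alpha genes, with 0 called.

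In CsA against Sham, which shares its libraries with the other 2 comparisons, 0 members were called in limma and 0 in voom, with 0 at an unadjusted p under 0.05 in each, and the background was 0.0% (200 genes at an unadjusted p under 0.05). The libraries overlapped for each member, against 9.74% of tested genes without overlap. Alas2 had a log2 fold change of 0.47 ± 0.272 (95% interval -0.14 to 1.08), Hbb-bt of 0.36 ± 0.45, Hbb-bs and Hba-a2 of 0.18 and Hba-a1 of 0.028 ± 0.409. The Hbb-bs interval ran from -0.71 to 1.07.

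**Figure D2:**
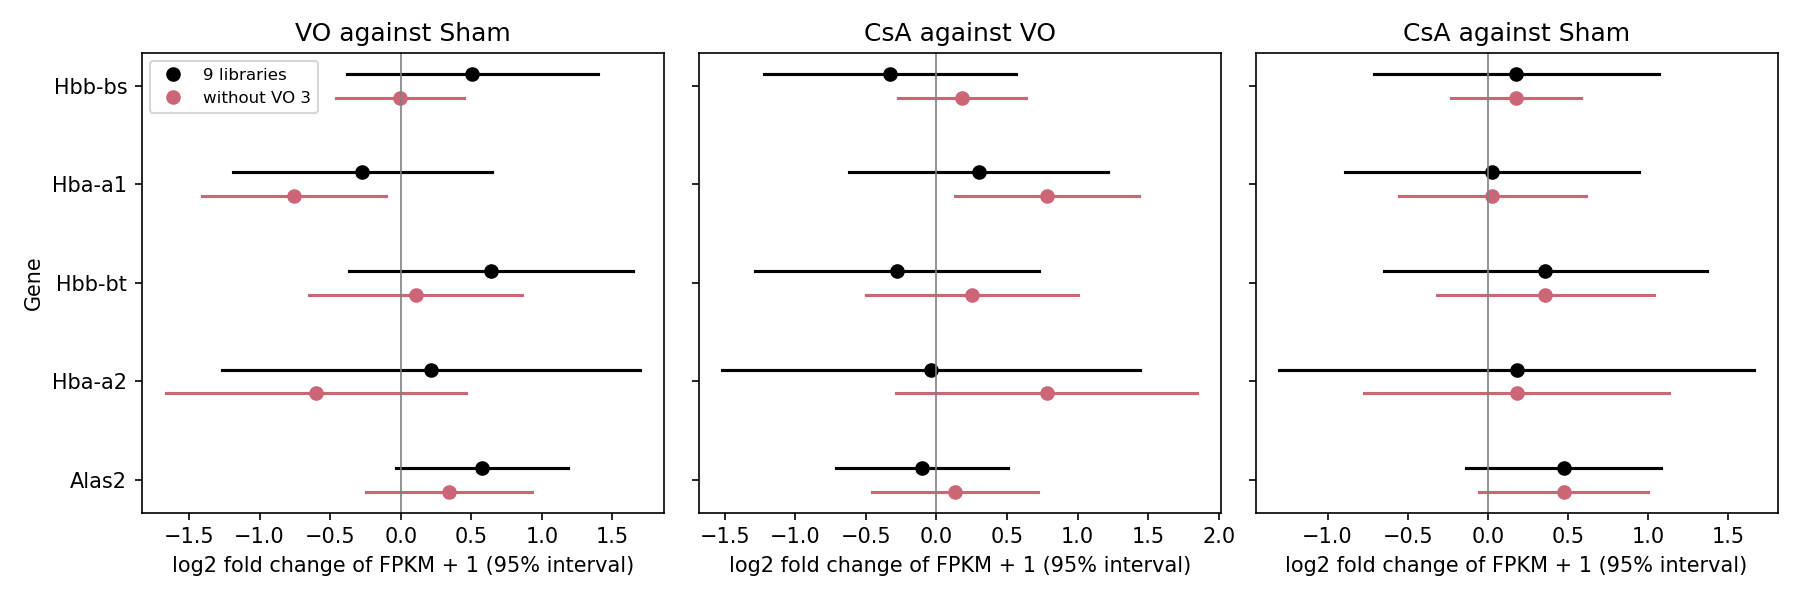
Log2 fold change of FPKM + 1 (horizontal axes) with its 95% interval for each member in the 3 comparisons, from all 9 libraries (black) and without VO 3 (red). The black intervals all include 0, and without VO 3 the Hba-a1 point in VO against Sham moves from -0.27 to -0.76. The red Hba-a1 intervals in VO against Sham and in CsA against VO leave out 0, though Hba-a1 was not called there (limma adjusted p = 0.0934 and 0.171).

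The balance of alpha to beta globin was lower in each VO library than in any Sham library. Alpha per beta, as a ratio of summed FPKM, was 0.506, 0.562 and 0.5 in Sham 1 to 3 and 0.241, 0.405 and 0.357 in VO 1 to 3. CsA 1 to 3 were at 0.408, 0.498 and 0.516. The VO and Sham values did not overlap, as was also so for 33.1% of tested genes in that comparison. That share is over the levels of single genes, and none was computed over ratios of genes. CsA 1 lay just above VO 2, and the means in Sham, VO and CsA were 0.523 ± 0.0342, 0.334 ± 0.0843 and 0.474 ± 0.0579 (SD, n = 3). No test was made of this ratio, which was chosen with the values known. VO 3 shared the low ratio although its alpha and beta levels, at 531.4 and 1487 FPKM, were both the highest of the 9.

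The alpha and beta genes differ in GC content, so the ratio was also computed after a GC correction. The longest transcripts of Hba-a1 and Hba-a2 had 57.2% and 56.9% GC, and those of Hbb-bs and Hbb-bt 51.3% and 50.8%. After each library's trend on GC was removed, the ratios were 0.463, 0.538 and 0.449 in Sham, 0.286, 0.427 and 0.373 in VO and 0.424, 0.476 and 0.507 in CsA. The VO and Sham values still did not overlap but lay closer, with 0.449 as the lowest in Sham and 0.427 as the highest in VO. CsA 1, at 0.424, then lay below VO 2, so CsA and VO overlapped. The Hba-a1 log2 fold change in VO against Sham went to 0.045.

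Within the pairs, the split between copies also varied between libraries. Hba-a2 took 12.9% (95% Wilson interval 11.7% to 14.2%) of alpha fragments in Sham 1, 16.3% in Sham 2 and 23.1% (21.5% to 24.9%) in Sham 3. The VO libraries gave 15.1%, 22.4% and 31.7%, and the CsA libraries 22.5%, 14.7% and 19.2%. The groups overlapped. The Wilson intervals cover counting error only, and not how reads shared by the copies were assigned. Hbb-bt took 9.22% to 12.0% of beta fragments in Sham, 10.4% to 11.4% in VO and 9.94% to 14.6% in CsA, a narrower range.

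**Figure D3:**
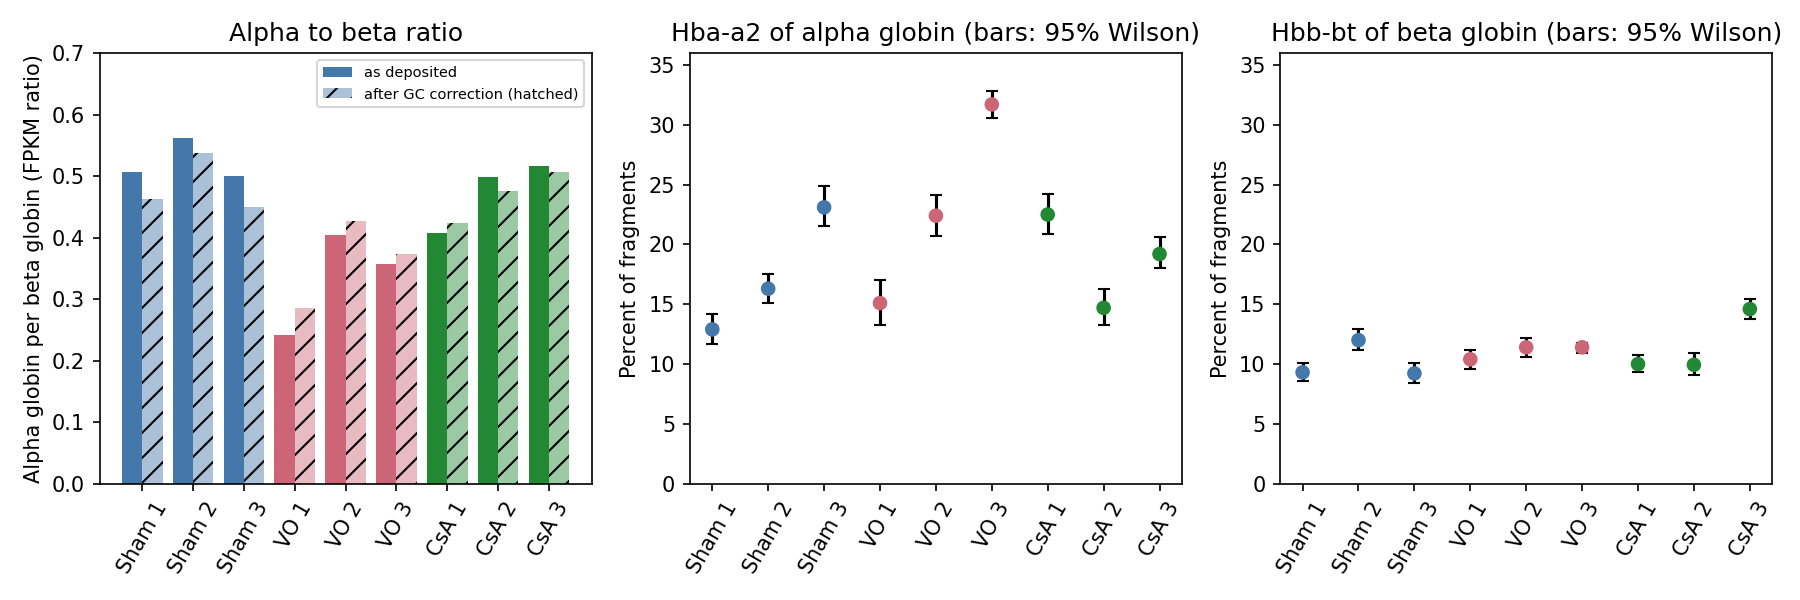
Left, alpha per beta globin as a ratio of FPKM in each library, as deposited (solid bars) and after the GC correction (hatched). Middle and right, the percent of alpha fragments from Hba-a2 and of beta fragments from Hbb-bt, with 95% Wilson intervals. The VO ratios are at most 0.405 as deposited and the Sham ratios at least 0.5, and the Hba-a2 share reaches 31.7% in VO 3.

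Alas2 followed the beta genes more closely than Hba-a1. Over the 9 libraries Pearson's r of log2(FPKM + 1) with Hbb-bt was 0.9, and 0.87 over the 8 without VO 3. With Hba-a1 it was 0.55 and 0.32. Hbb-bs and Hbb-bt were at 0.94 and 0.87. These are descriptions over libraries that share their depth and scaling. Per 1000 FPKM of globin, Alas2 was at 11.1, 14.1 and 11.2 FPKM in Sham, at 17.7, 18.3 and 9.98 FPKM in VO and at 16.8, 14.9 and 14.9 FPKM in CsA. VO 3 thus had the lowest share of Alas2 beside the highest globin level, while VO 1 and VO 2 had the highest shares.

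The embryonic globin genes had few or no fragments. Hba-x, Hbb-bh1, Hbb-bh2 and the pseudogene Hbb-bh0 had 0 fragments in all 9 libraries, which for Hba-x allows at most 0.268 FPKM in a library (3 fragments) and for Hbb-bh1 0.41 FPKM. For Hbb-bh0, a gene model of 129 bases, the limit is looser, at up to 1.95 FPKM. Hbb-y had 2 fragments, both in VO 2, and the theta globins Hbq1a and Hbq1b had 5 and 15 fragments in total.

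Globins of other cells were measured beside hemoglobin. Mb, the oxygen-storing myoglobin of heart muscle, stood at 1420 ± 294 FPKM in Sham, 683 ± 316 FPKM in VO and 1190 ± 304 FPKM in CsA (SD, n = 3), with -1.13 ± 0.351 as its log2 fold change in VO against Sham (limma adjusted p = 0.0772). Cygb, cytoglobin, was at -0.51 ± 0.175 (adjusted p = 0.0982). Of 10 other globin genes, 2 were tested and 0 passed in any comparison.

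Other genes of the red cell membrane and cytoplasm were low. Of 15 such genes in the table, 4 were tested, 0 passed in any comparison and 3 (Car1, Cldn13 and Icam4) were at 0 in every library. The anion exchanger Slc4a1 ranged from 0.116 FPKM in CsA 2 to 1.07 FPKM in Sham 2 and VO 3. Rhd, a blood group protein, reached 1.53 FPKM in VO 3. The summed level of the list was 2.94 to 6.1 FPKM in Sham, 6.04 to 6.61 FPKM in VO and 3.45 to 6.64 FPKM in CsA. In VO 3 it was 6.61 FPKM, beside 6.3 FPKM in VO 1, 6.55 FPKM in CsA 1 and 6.64 FPKM in CsA 3, whereas Hbb-bs in VO 3 was at least 2.2 times every other library.

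Of 16 red cell genes that muscle or many tissues also use, 14 were tested and 1 passed in VO against Sham, where 4.76% of all tested genes did, and a count of 1 is near that share. Sptb, the beta spectrin of red cells and muscle, fell in VO, from 10.6 ± 1.16 to 4.52 ± 1.51 FPKM (SD, n = 3), -1.11 ± 0.244 on the log2 scale (limma adjusted p = 0.0408). The transferrin receptor Tfrc, for iron uptake, was at 0.28 ± 0.274, the actin-capping Tmod1 at -0.72 ± 0.248, the mitophagy receptor Bnip3l at 0.34 ± 0.191 and glycophorin C (Gypc) at -0.43 ± 0.142, none past the test. The median log2 fold change of the 14 was 0.11. Over 23 alternatives the log2 fold change of Sptb stayed between -1.27 and -0.8. The call held without VO 3 and was lost in 11, among them the GC correction (-0.8) and the replicate block (-1.11), under which 0 and 1 genes of the whole table were called.

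The defining erythroid transcription factors were near 0. Gata1 and Klf1, master regulators of red cell genes, had 5 and 3 fragments over all 9 libraries and Gfi1b had 2. Of 11 genes on this list 5 were tested, and 0 passed in any comparison. In VO against Sham, Ldb1 was at a log2 fold change of -0.66 ± 0.198, the GATA cofactor Zfpm1 at -1.05 ± 0.271 (limma adjusted p = 0.0534), Lmo2 at 0.15 ± 0.242 and Tal1 at 0.07 ± 0.177.

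The other enzymes of heme synthesis, used in all cells, did not pass in any comparison (0 of 8). Their median log2 fold change was -0.03 in VO against Sham. Alas1, the housekeeping counterpart of Alas2, stood at 59.0 ± 1.63 FPKM in Sham, 55.8 ± 24.2 FPKM in VO and 52.5 ± 4.23 FPKM in CsA (SD, n = 3). Urod reached 40.9 FPKM in VO 3 against 12.4 to 20.7 FPKM elsewhere, and Alad 25.6 FPKM against 10.6 to 18.1 FPKM. Fech, which inserts iron in the step that forms heme, stayed between 37.3 and 47.2 FPKM in the 9 libraries.

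Of the genes for heme breakdown and iron handling, 9 were tested and 1 passed in VO against Sham, again too few to read against the 4.76% of all tested genes. Slc48a1, a heme transporter, fell in VO, from 28.1 ± 3.03 to 17.0 ± 0.816 FPKM (SD, n = 3), -0.68 ± 0.149 on the log2 scale (limma adjusted p = 0.0408). Over the 23 alternatives it stayed between -0.76 and -0.41, and the call was lost in 12, including the same pair (-0.41 and -0.68). The ferritin heavy chain Fth1 was at -0.68 ± 0.336, the light chain Ftl1 at 0.01 ± 0.352 and the heme oxygenase Hmox2 at -0.08 ± 0.24, with adjusted p of 0.21 to 0.986. The 4 genes beside the alpha globin genes (Nprl3, Mpg, Rhbdf1 and Snrnp25) had a median log2 fold change of -0.3 in VO against Sham, and 0 passed. Nprl3, whose introns hold enhancers of alpha globin, was at -0.19 ± 0.134.

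Markers of other blood cells were measured beside hemoglobin. Neutrophil markers summed to 2.51 to 6.19 FPKM in Sham, 5.95 to 26.4 FPKM in VO and 2.72 to 9.28 FPKM in CsA, and the highest value was in VO 3. Of these 14 genes 3 were at 0 in every library (Ly6g, Mpo and Elane), and the sum rested on S100a8 (12.5 FPKM in VO 3, 0 to 4.61 FPKM elsewhere) and S100a9 (11.4 FPKM in VO 3, 0.962 to 3.5 FPKM elsewhere). Platelet markers summed to 59.6 FPKM in VO 3 and 20.4 to 32.6 FPKM in the other 8 libraries, led by Pf4, which cardiac macrophages also express. Blood monocyte markers summed to 6.41 FPKM in VO 3 and 0.599 to 3.01 FPKM elsewhere. Lymphocyte markers were highest in CsA 3 (5.37 FPKM), with 4.13 FPKM in VO 3. Fat cell markers, of a cell type outside the blood, summed to 493 FPKM in VO 3 and 126 to 197 FPKM elsewhere, led by Fabp4 (456 FPKM in VO 3), which endothelial cells also express. Adipoq, Plin1, Cidec, Cfd and Ucp1 were at 0 in VO 3 and above 0 in Sham libraries only, and Lep and Retn were at 0 in every library. None of the tested genes of the 4 blood lists (2, 3, 1 and 2 genes) passed in any comparison, and the part of these cells, of depth and of the mitochondrial share in the VO 3 values was not tested.

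**Figure D4:**
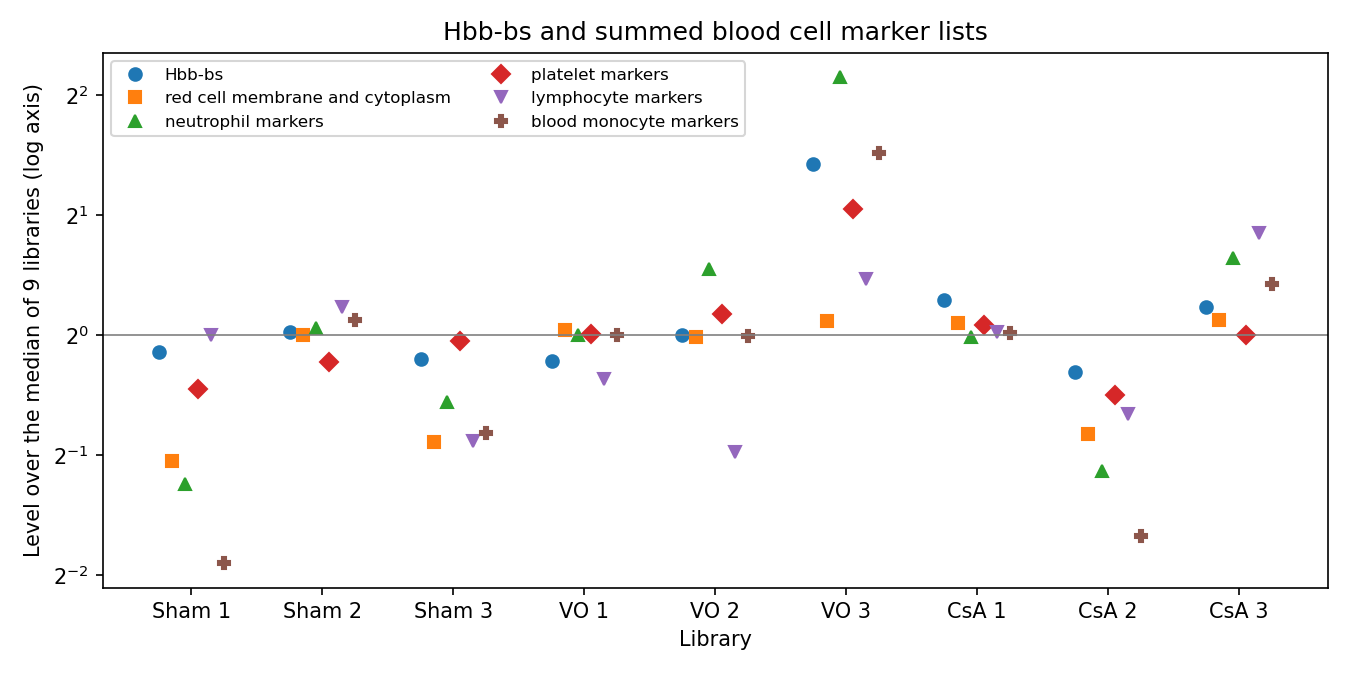
Hbb-bs and the summed FPKM of 5 blood cell marker lists in each library, as a multiple of the median of the 9 libraries (log axis). In VO 3 Hbb-bs and the neutrophil, platelet and monocyte lists stand highest. The red cell membrane and cytoplasm list in VO 3, at 6.61 FPKM, is close to its level in VO 1 (6.3 FPKM).

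The tested genes with a symbol most like Hbb-bs were ranked by the smaller of Pearson's r over 9 libraries and over the 8 without VO 3. Hbb-bt ranked 7, Alas2 25, Hba-a2 134 and Hba-a1 574. The 8 genes that led outside the members were the processed pseudogene Rps4x-ps (0.957), Spryd4 (0.887), the calcium-binding protein S100a11 (0.88), Bloc1s5 (0.878), the pseudogene Gm2412 (0.873), the fatty acid binding protein Fabp5 (0.868), the splicing factor Snrnp27 (0.861) and Ccdc174 (0.859). Rps4x-ps was low, at 0 to 2.56 FPKM. Without VO 3, Rps4x-ps and Gm2412 would not have reached the mean of 0.5 FPKM required for testing, so their place rests in part on that filter. S100a11 stood at 71.3 to 103.6 FPKM in Sham, 69.6 to 178.1 FPKM in VO and 74.8 to 117.5 FPKM in CsA, and was also highest in VO 3. By this measure Bpgm, which makes a small molecule that lowers the oxygen affinity of hemoglobin, was at 0.798 and Ube2l6 at 0.757.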

How the data were processed

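The authors deposited 1 table of FPKM per gene for 9 libraries. Per the labels' protocols, 1 µg of Trizol RNA entered each NEBNext Ultra library. Per the submitters' processing notes, the tools were GATK 3.7, DESeq2 1.20.0, HISAT2 2.0.5, featureCounts 1.5.0-p3 and StringTie 1.3.3b, and the builds GRCm38 and mm10, without a role for any. Strand setting and annotation release are not given in the sources used here. FPKM values times gene length were whole multiples of 1 fragment (100% within 0.1), which gave the fragments. Intervals and floors cover counting error only.

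The members and gene lists were chosen with earlier results of these data known. log2(FPKM + 1) was fitted for 13477 genes in limma 3.58.1 (R 4.3.3, trended empirical Bayes, 9 libraries, no covariate), with Benjamini-Hochberg adjustment over all genes, two-sided. Fold changes are on that scale, which understates low genes. The rule for named genes took, beside the members, from each list up to 4 genes of highest mean level and those past the test, and the 8 genes most like Hbb-bs. GC came from the longest GENCODE M21 transcript, and promoters from RefSeq (5 of 5 members matched). Chi-square per degree of freedom between replicates was 11.5 to 182.7, so no pair agreed within sampling noise. The test was checked on simulated data. Ddx3y, Xist, the list genes at or near 0, Bpgm and Ube2l6 fall outside the rule and were chosen after their values were seen. Some genes that the rule takes are left out of the text. Alternatives were other pseudocounts, filters and scalings, voom, a GC correction, a replicate block, only the groups compared, covariates, and libraries left out.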

Additional observations from a re-analysis of the deposited data

How the results depend on the processing

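None of the 5 members was called in any comparison under the 23 alternatives, and the lowest adjusted p was 0.0762 (Hba-a1, VO against Sham, limma with the mitochondrial share as a covariate). Few genes of the whole table were called in the comparisons with CsA: at most 2 in CsA against VO (with that covariate) and 3 in CsA against Sham (without Sham 2). A count of 0 members there says little about the members. In VO against Sham the count over the whole table ran from 0 to 2032, as given below. Direction was less stable: 30 of 345 member values changed sign, and 3 of 15 member results never did (Hbb-bt and Alas2 in VO against Sham, Alas2 in CsA against Sham). The mitochondrial covariate, the removal of the 3 libraries high in atrial markers and the GC correction of the alpha to beta ratio were chosen after seeing the data. The causes of the sign changes were not tested.

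On the log2 scale, in VO against Sham, Hba-a1 went to 0.045 under the GC correction, and the mitochondrial covariate gave -0.59 for Hba-a2 and -0.026 for Hbb-bs. In CsA against VO, Hba-a2 was at 0.11 under quantile scaling, 0.08 when rescaled without mitochondrial genes and 1.08 with the covariate. There the covariate gave 0.41 for Hbb-bs, 0.51 for Hbb-bt and 0.23 for Alas2, and rescaling without mitochondrial genes gave 0.0069 for Alas2. Leaving out the 3 atrial-high libraries left Sham 2, the library with Y-linked transcripts, as the only Sham library. The values of that fit against Sham are therefore set against Sham 2 alone. In CsA against Sham, Hba-a1 was then at -0.43, Hba-a2 at -0.22, Hbb-bs at -0.029 and Hbb-bt at -0.32. In VO against Sham, Hba-a1 was at -0.56, Hba-a2 at 0.0092, Hbb-bs at 0.38, Hbb-bt at 0.24 and Alas2 at 0.19.

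Leaving out each library in turn, the log2 fold change in VO against Sham ranged from -0.76 (without VO 3) to 0.18 (without VO 1) for Hba-a1, from -0.6 to 1.0 for Hba-a2 and from -0.0045 to 0.82 for Hbb-bs, with the same libraries at the ends. CsA against VO ranged from -0.15 (without VO 1) to 0.78 (without VO 3) for Hba-a1, -0.82 to 0.78 for Hba-a2, -0.64 to 0.18 for Hbb-bs, -0.64 to 0.25 for Hbb-bt and -0.32 to 0.13 for Alas2, again with these libraries. CsA against Sham ranged from -0.14 to 0.17 for Hba-a1 (without CsA 3 and Sham 2) and from -0.05 to 0.5 for Hba-a2 (without Sham 1 and CsA 2).

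The replicate block called 0 members and 1 gene of the table in VO against Sham. Same-numbered libraries had correlations of -0.4 to 0.24 and 2 of 9 libraries correlated best with their own number, so no pairing by number was seen. Whether same-numbered libraries share a litter or a batch cannot be told from these values. The background of 642 genes in VO against Sham fell to 0 with no filter, with only the groups compared, under the GC correction, and without Sham 3, VO 1, CsA 1 or CsA 3. It was 1 without Sham 1 and 69 without Sham 2, and rose to 1010 with voom, 1812 with the covariate and 2032 without VO 3. Rescaling without mitochondrial genes gave 214 higher and 541 lower genes and voom 605 and 405, against 275 and 367. The mean alpha to beta ratio in Sham went from 0.523 to 0.483 under the GC correction.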
